A study of Mus musculus with 15 samples.

Results

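Genes of iron uptake, storage and export were followed in mouse bone marrow-derived macrophages (BMDMs), cells that become osteoclasts when given the cytokine RANKL and inflammatory macrophages when given lipopolysaccharide (LPS). The set holds 10 genes chosen by symbol, all of them among the 20089 genes of the expression table. They are the transferrin receptor *Tfrc*, the divalent metal transporters *Slc11a2* and *Slc11a1*, the metalloreductase *Steap4*, the ferritin chains *Fth1* and *Ftl1*, the ferritin receptor *Ncoa4*, the haem oxygenase *Hmox1*, the iron exporter *Slc40a1* and the hormone *Hamp*. BMDMs of wild-type C57BL/6 mice were grown in M-CSF, a stimulus shared by all groups, for 3 days by the design text and 4 days by the study's methods. Controls had M-CSF without another stimulus, and the other groups had RANKL or LPS for 4 h or for 72 h (3 days), with 3 libraries in each of 5 groups. No group was kept for 72 h without RANKL or LPS, so time in culture and stimulus cannot be told apart at 72 h. The sources do not say whether the 3 libraries of a group came from separate cultures or animals, so p-values speak only for these samples. Expression is given as FPKM, the fragments of a gene per kilobase of its exons scaled to the mapped fragments of the library.

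A cell takes up transferrin-bound iron through the transferrin receptor, reduces it in the endosome and passes it to the cytosol through *Slc11a2*. Iron not in use is held in a shell of heavy and light ferritin chains, and *Ncoa4* carries ferritin to the lysosome when iron is needed. Macrophages gain iron from the haem of engulfed red cells through *Hmox1*, export it through ferroportin, the product of *Slc40a1*, and lose ferroportin from the surface when hepcidin, the product of *Hamp*, binds it. *Slc11a1* moves metal out of the phagosome and limits the growth of microbes within it. Osteoclasts are rich in mitochondria and are known to take up more transferrin iron as they mature.

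Many iron genes carry an iron-responsive element, a short stem and loop in the messenger RNA that iron regulatory proteins bind when iron is low. In a 5′ untranslated region (UTR) this binding blocks translation, and in a 3′ UTR it protects the message from decay. The elements are shown because through them iron is known to act on the message level of some genes and the translation of others. Other routes by which iron may act on message levels were not examined, and the values below are message levels only. A search of GENCODE M21 transcripts on GRCm38 for a C, 5 bases, the loop CAGTGN and 5 bases that pair with the first 5 (G-T allowed) found such an element in 5 of the 10 genes. The 30 bases around each are given 5′ to 3′ on the gene's strand, with the 6 loop bases in capitals. The *Slc11a2* element has 1 extra base on the 3′ side of its stem.
*Fth1* 5′ UTR, chr19:9982732-9982761, plus strand: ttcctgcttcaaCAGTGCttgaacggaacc
*Ftl1* 5′ UTR, chr7:45459778-45459807, minus strand: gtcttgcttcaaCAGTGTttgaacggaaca
*Slc40a1* 5′ UTR, chr1:45925464-45925493, minus strand: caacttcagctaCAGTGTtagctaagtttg
*Slc11a2* 3′ UTR, chr15:100395152-100395181, minus strand: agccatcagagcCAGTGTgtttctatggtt
*Tfrc* 3′ UTR, chr16:32631219-32631248, plus strand: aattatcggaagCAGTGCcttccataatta
*Tfrc* 3′ UTR, chr16:32631598-32631627, plus strand: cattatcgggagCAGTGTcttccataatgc
*Tfrc* 3′ UTR, chr16:32631663-32631692, plus strand: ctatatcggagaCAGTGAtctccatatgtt
*Tfrc* 3′ UTR, chr16:32631710-32631739, plus strand: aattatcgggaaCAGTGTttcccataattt
The form without an extra base occurs in 28 of 20831 genes with a 5′ UTR (0.134%) and in 127 of 21589 genes with a 3′ UTR (0.588%). A match of letters is a description and does not show that a protein was bound.

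In control BMDMs the iron genes ran from the most abundant messages to genes near 0. *Fth1* and *Ftl1* were the 1st and 2nd most abundant of the 20089 genes by FPKM, at 20277 ± 874 and 13650 ± 1159 (mean ± SD, n = 3). *Hmox1* ranked 42, *Slc11a1* 215, *Slc40a1* 310, *Tfrc* 633 and *Ncoa4* 2032, whereas *Slc11a2* ranked 5142, *Hamp* 11091 and *Steap4* 11936. Fragments on listed genes numbered 18306184 to 20330207 per library. Libraries of a group differed by 6.87 to 46.3 times the sampling noise in their median gene. Such values set them apart from repeat sequencing of 1 library, but not from separate preparations of 1 RNA sample or culture. The 2 largest of these values both involved replicate 3 of LPS 72 h, and results that rest on that library are given without it where its removal changed them. The labelled states were visible in their markers. *Ctsk*, the collagen-degrading protease of osteoclasts, had 24 ± 8.73 FPKM in control and 1060 ± 568 in RANKL 72 h, and the inflammatory cytokine *Tnf* had 18.6 ± 4.28 in control and 1970 ± 455 in LPS 4 h. Osteoclast markers were higher than control in 9 of 10 cases in RANKL 72 h, beside 16.6% of all tested genes. LPS response genes were higher in 10 of 10 cases in LPS 4 h, beside 8.43% of all tested genes. None of the 8 macrophage markers was at 0 in any group, with summed levels of 7460 to 9120 FPKM in control.

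**Figure D1:**
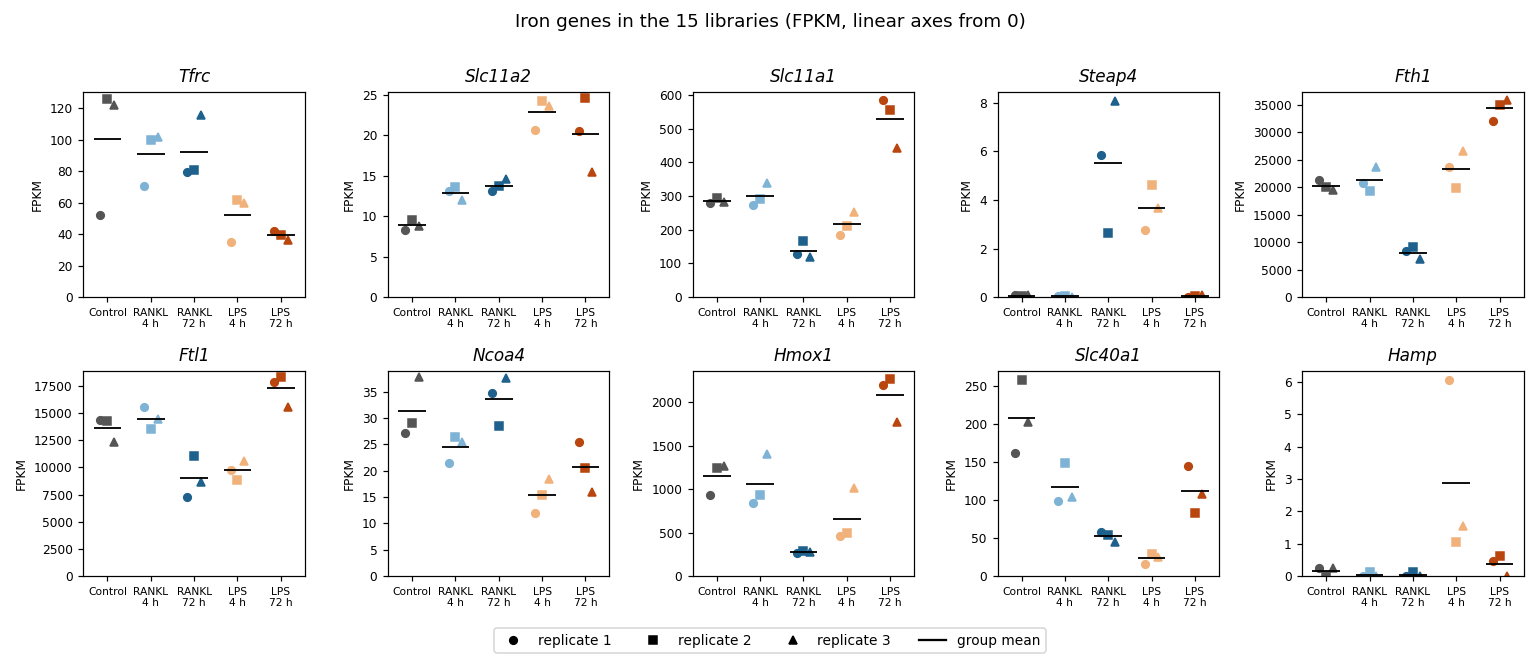
FPKM of the 10 iron genes in each of the 15 libraries, on linear axes from 0 with a separate scale for each gene. Symbols mark the replicate number and bars the mean of 3 libraries, and the *Fth1* libraries of LPS 72 h (32078 to 35888 FPKM) and RANKL 72 h (6921 to 9038 FPKM) lie on either side of control.

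A gene was called changed when it differed by more than 1.5-fold up or 0.66-fold down with a Benjamini-Hochberg adjusted p under 0.05, in a limma fit of log2(FPKM + 0.1) over 11743 genes. The fit draws the spread of each gene towards that of genes at a similar level. Standard errors and p-values thus do not rest on the libraries of that gene alone. All 10 iron genes passed the filter on low values, *Hamp* and *Steap4* mainly through the groups in which they were high. RANKL 4 h changed none of the 10, against 0.111% of all tested genes higher and 0.00852% lower, with limma on recovered fragments also calling none and *Slc40a1* and *Slc11a2* alone having an unadjusted p under 0.05. RANKL 72 h raised 2 (*Slc11a2*, *Steap4*) and lowered 4 (*Slc40a1*, *Slc11a1*, *Hmox1*, *Fth1*), where 16.6% of all genes were higher and 7.54% lower. LPS 4 h raised 3 (*Slc11a2*, *Steap4*, *Hamp*) and lowered 4 (*Tfrc*, *Slc40a1*, *Hmox1*, *Ncoa4*), where 8.43% of all genes were higher and 39.7% lower. LPS 72 h raised 4 (*Slc11a1*, *Slc11a2*, *Hmox1*, *Fth1*) and lowered 3 (*Tfrc*, *Slc40a1*, *Ncoa4*), where 13% of all genes were higher and 14.4% lower. The median log2 difference of the 10 genes was -0.10, -0.71, -0.44 and 0.47 in these 4 comparisons, which share the control libraries.

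The scale of the values matters most for LPS 4 h, because the median of all tested genes stood at -0.52 (log2) against control there. It was 0.16 in RANKL 72 h and 0.08 in LPS 72 h. With each library centred on its median gene, the calls over all genes in LPS 4 h split into 1871 higher and 1529 lower in place of 990 and 4660, and those in RANKL 72 h into 1167 and 1428 in place of 1951 and 886. After centring, 3 iron genes were higher and 1 lower in LPS 4 h. Centred differences are therefore given beside the LPS 4 h values. In bulk libraries, fewer cells of a type and less RNA per cell cannot be told apart.

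**Figure D2:**
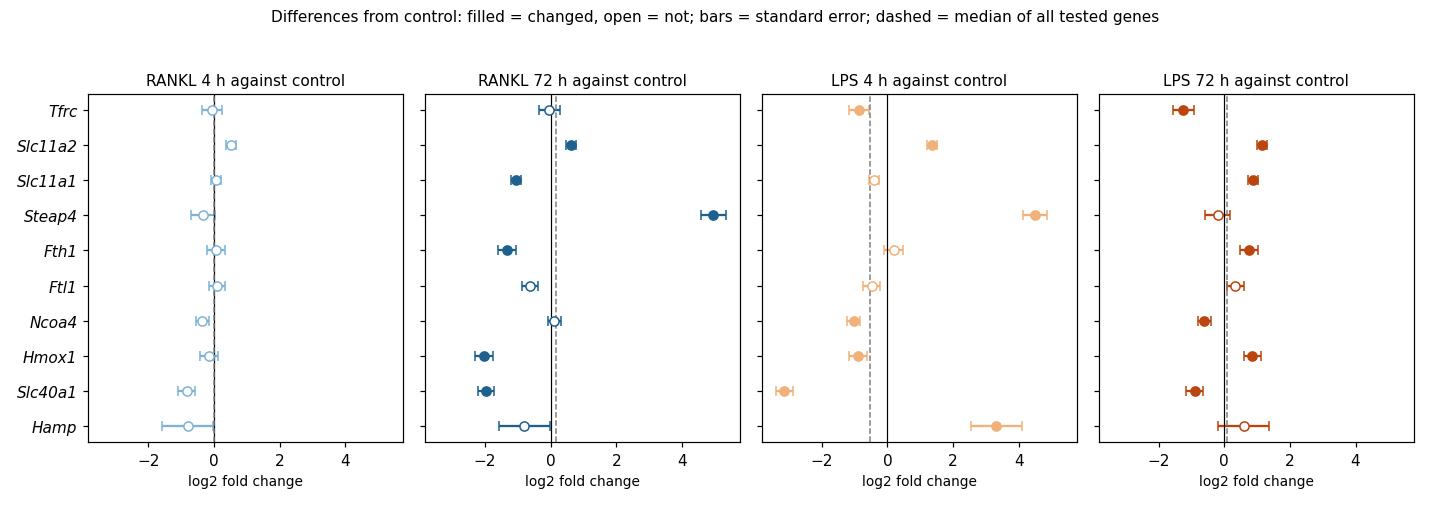
Log2 fold change of the 10 iron genes against control in each of the 4 stimulated groups, with bars for the standard error of the limma fit. Filled points passed the call, open points did not, and the dashed line is the median of all tested genes, which lies at -0.52 in LPS 4 h.

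*Tfrc* (chr16:32608920-32632794, plus strand, GRCm38 in GENCODE M21, as for all positions) encodes the receptor that brings transferrin iron into the cell. It was lower under LPS and not under RANKL. Control libraries 1 to 3 held 52.5, 126 and 122 FPKM, and LPS 72 h libraries 41.9, 39.5 and 36.5. The LPS 72 h values lay below every control value, a log2 difference of -1.24 (SE 0.31, adjusted p = 0.00657). LPS 4 h libraries held 35.3, 61.7 and 60.0 FPKM and overlapped with control through the low control replicate 1 (-0.87, SE 0.31, adjusted p = 0.024). That call was lost after centring (-0.31, adjusted p = 0.435), in a fit of these 2 groups alone (adjusted p = 0.079), without control replicate 2 (-0.66, adjusted p = 0.109) or 3 (-0.68, adjusted p = 0.102), and without LPS 4 h replicate 1 (-0.61, adjusted p = 0.116). RANKL 72 h libraries held 79.4, 80.7 and 116 FPKM, within the control range (-0.04, SE 0.31, adjusted p = 0.936), and RANKL 4 h libraries 70.7, 100 and 102. Between the stimuli at 72 h *Tfrc* was higher in RANKL by 1.21 (SE 0.31, adjusted p = 0.00569), with no overlap of libraries. Replicate 1 had the lowest *Tfrc* of its group in control, RANKL 4 h, LPS 4 h and RANKL 72 h.

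*Slc11a2* (chr15:100387898-100425072, minus strand) encodes the transporter that passes reduced iron from the endosome to the cytosol. It rose in 3 of the 4 stimulated groups. Control libraries held 8.34, 9.56 and 8.80 FPKM, LPS 4 h libraries 20.7, 24.3 and 23.6, and LPS 72 h libraries 20.6, 24.6 and 15.5. All LPS values lay above all others of the series. The log2 differences from control were 1.35 in LPS 4 h (SE 0.15, adjusted p = 4.85e-06, 1.92 after centring) and 1.15 in LPS 72 h (SE 0.15, adjusted p = 7.33e-05). RANKL 72 h libraries held 13.1, 13.7 and 14.6 FPKM, a difference of 0.63 from control (SE 0.15, adjusted p = 0.00579). RANKL 4 h libraries held 13.1, 13.6 and 12 FPKM, also above every control library, but the difference of 0.53 had an adjusted p of 0.331. The RANKL 72 h call fell below the fold threshold after centring (0.41), with a pseudocount of 1 (0.58), without control replicate 1 (0.58) and without RANKL 72 h replicate 3 (0.58). RANKL 72 h was lower than LPS 72 h by 0.53 on the log2 scale (adjusted p = 0.00934), which missed the fold threshold and passed it without LPS 72 h replicate 3 (-0.70, adjusted p = 0.000319) or after centring (-0.66). An annotated gene, *Gm5475*, overlaps *Slc11a2* on the other strand, and whether the counting used strand is not stated.

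*Slc11a1* (chr1:74375195-74386062, plus strand), the phagosomal metal transporter, moved in opposite directions under the 2 stimuli at 72 h. Control libraries held 280, 293 and 281 FPKM. RANKL 72 h libraries held 127, 168 and 118, all below control (-1.06, SE 0.16, adjusted p = 0.00035), and LPS 72 h libraries held 586, 555 and 441, all above it (0.88, SE 0.16, adjusted p = 0.000961). The direct difference of RANKL 72 h from LPS 72 h was -1.94 (SE 0.16, adjusted p = 9.76e-07). LPS 4 h libraries held 185, 212 and 252 FPKM, below control as deposited but not past the fold threshold (-0.41, adjusted p = 0.0417), and the sign turned after centring (0.16). RANKL 4 h libraries, at 272, 291 and 338, overlapped with control. The ratio of *Slc11a1* to *Slc11a2* within a library, chosen after the values were seen and given without a test, was 32 ± 1.43 in control, 23.4 ± 4.08 in RANKL 4 h, 10 ± 2.11 in RANKL 72 h, 9.44 ± 1.08 in LPS 4 h and 26.5 ± 3.40 in LPS 72 h (n = 3 each). The phagosomal gene thus led the endosomal gene in every library, by 30.7 to 33.5 times in control and 8.10 to 12.3 times in RANKL 72 h.

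*Steap4* (chr5:7960457-7982213, plus strand) encodes a membrane reductase that turns ferric into ferrous iron. It was near 0 in control and present in RANKL 72 h and LPS 4 h. Control libraries held 0.0890, 0.0299 and 0.0796 FPKM, or 6, 2 and 5 fragments. RANKL 72 h libraries held 5.86, 2.65 and 8.06 FPKM and LPS 4 h libraries 2.76, 4.64 and 3.66, all far above the highest value of the other 3 groups (0.0890). Over the groups, 1042 fragments in RANKL 72 h and 735 in LPS 4 h stood against 13 in control, ratios of 84.2 (95% exact interval 49.0 to 159) and 55.8 (32.4 to 105), intervals that cover counting error only. The fitted differences were 4.96 (SE 0.37, adjusted p = 1.07e-06) and 4.5 (SE 0.37, adjusted p = 4.13e-07, 5.07 after centring), and their size depends on the pseudocount (2.52 and 2.12 with a pseudocount of 1). RANKL 4 h held 6 fragments in all and LPS 72 h 9. *Steap4* was thus late under RANKL (72 h above 4 h by 5.29, adjusted p = 8.95e-07) and early under LPS (72 h below 4 h, -4.70, adjusted p = 2.42e-07).

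The heavy ferritin chain *Fth1* (chr19:9980598-9985098, plus strand), which oxidises iron for storage, fell in RANKL 72 h. Control libraries held 21235, 20074 and 19523 FPKM and RANKL 72 h libraries 8371, 9038 and 6921, with no overlap (-1.33, SE 0.28, adjusted p = 0.00305). That call was lost when no low genes were filtered out (adjusted p = 0.129). LPS 72 h libraries held 32078, 34930 and 35888 FPKM, all above the 12 other libraries. The LPS 72 h difference from control was 0.76 (SE 0.28, adjusted p = 0.0462), and the call did not survive leaving out control replicate 1, 2 or 3 (0.79, 0.75 and 0.73, adjusted p = 0.0912, 0.113 and 0.113) or LPS 72 h replicate 1 or 2 (0.80 and 0.74, adjusted p = 0.0545 and 0.115). It was also lost after centring (0.68, adjusted p = 0.248), without the filter (adjusted p = 0.392), in a fit of the 2 groups alone (adjusted p = 0.249) and with a pseudocount of 1 (adjusted p = 0.0582). The call was kept in 8 of 17 alternatives, and the difference ran from 0.68 to 0.80 over all of them. RANKL 72 h was lower than LPS 72 h (-2.09, SE 0.28, adjusted p = 4.38e-05). LPS 4 h libraries, at 23608, 19853 and 26525, overlapped with control (0.19, 0.76 after centring, adjusted p = 0.569 and 0.195), as did RANKL 4 h libraries, at 20787, 19335 and 23603.

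The light ferritin chain *Ftl1* (chr7:45457944-45459884, minus strand), which helps the iron core form, moved less than *Fth1* in the late groups. Control libraries held 14398, 14237 and 12314 FPKM, RANKL 72 h libraries 7251, 11030 and 8700, and LPS 4 h libraries 9793, 8887 and 10609. Both stimulated groups lay below control without overlap, yet neither passed (-0.62, SE 0.25, adjusted p = 0.0762, and -0.48, adjusted p = 0.112, which turned to 0.08 after centring). The RANKL 72 h difference passed without the trend in limma (adjusted p = 0.00954), with a filter at a mean of 1 FPKM (adjusted p = 0.0276) and with limma on recovered fragments (adjusted p = 0.00902). LPS 72 h libraries, at 17878, 18374 and 15581 FPKM, lay above control, again without a call (0.34, adjusted p = 0.313), whereas RANKL 72 h was below LPS 72 h (-0.96, SE 0.25, adjusted p = 0.00692). That call was lost without the filter on low genes (adjusted p = 0.136) and in a fit of the 2 groups alone (adjusted p = 0.161). RANKL 4 h libraries held 15532, 13561 and 14424 FPKM. Both ferritin genes have processed copies elsewhere in the genome, and how fragments shared with such copies were assigned is not given in the sources used here. The annotated genes *Gm22133* (a microRNA, same strand) and *Gm10252* (other strand) overlap *Ftl1*.

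The 2 chains together held 3.43 ± 0.184% of the fragments on listed genes in control, 3.62 ± 0.264% in RANKL 4 h, 1.75 ± 0.263% in RANKL 72 h, 3.31 ± 0.421% in LPS 4 h and 5.22 ± 0.167% in LPS 72 h (n = 3 each). By library the share was 3.23 to 3.59% in control, 1.59 to 2.05% in RANKL 72 h and 5.07 to 5.40% in LPS 72 h. Every library of LPS 72 h was above, and every library of RANKL 72 h below, all other libraries. The Wilson 95% interval of each share was within about its last printed digit, for example 3.59 to 3.60% for control replicate 1, and covers counting error only. The heavy to light ratio within a library, chosen after the values were seen and given without a test, was 1.49 ± 0.0887 in control and 1.47 ± 0.153 in RANKL 4 h. It was 0.923 ± 0.201 in RANKL 72 h, with libraries from 0.796 to 1.15, below all control libraries (1.41 to 1.59). In LPS it was 2.38 ± 0.136 at 4 h and 2.0 ± 0.268 at 72 h, above all control libraries.

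**Figure D3:**
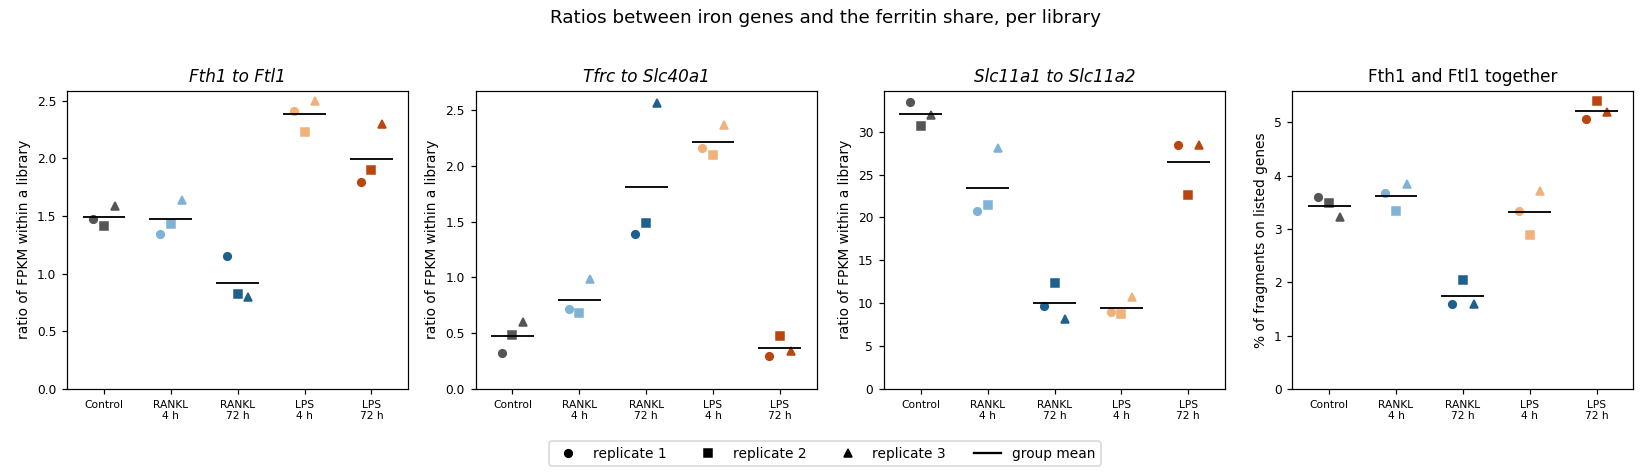
Ratios of FPKM within each library for heavy to light ferritin, *Tfrc* to *Slc40a1* and *Slc11a1* to *Slc11a2*, and the percentage of fragments on listed genes that fell on both ferritin genes, on linear axes from 0. Symbols mark the replicate number and bars the mean of 3 libraries, and the ferritin share runs from 1.75% in RANKL 72 h to 5.22% in LPS 72 h.

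*Ncoa4* (chr14:32159865-32179855, plus strand), the receptor that delivers ferritin to the lysosome, was lower under LPS. Control libraries held 27.1, 29.0 and 37.7 FPKM and LPS 4 h libraries 12, 15.4 and 18.5, with no overlap (-1.03, SE 0.20, adjusted p = 0.000525). After centring the difference was -0.47 (adjusted p = 0.0401) and no longer past the fold threshold. LPS 72 h libraries held 25.5, 20.5 and 15.9 FPKM, also below every control library (-0.61, SE 0.20, adjusted p = 0.0279). This smaller difference was not called without control replicate 3 (-0.47, adjusted p = 0.111) or LPS 72 h replicate 2 (-0.62, adjusted p = 0.0653) or 3 (-0.43, adjusted p = 0.0915), in a fit of the 2 groups alone (adjusted p = 0.0682), with FPKM rescaled to equal sums (adjusted p = 0.0722) or, for its size, with a pseudocount of 1 (-0.59). RANKL 72 h libraries, at 34.7, 28.5 and 37.5 FPKM, lay within the control range (0.11, adjusted p = 0.707). RANKL 4 h libraries held 21.4, 26.4 and 25.4 FPKM, also below every control library, but without a call (-0.35, SE 0.20). RANKL 72 h was higher than LPS 72 h by 0.71 (SE 0.20, adjusted p = 0.00919), a call lost on size after centring (0.58) and without LPS 72 h replicate 3 (0.54, adjusted p = 0.0356).

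*Hmox1* (chr8:75093621-75100589, plus strand), the enzyme that frees iron from haem, showed the widest separation between the late groups among the abundant iron genes. Control libraries held 938, 1245 and 1267 FPKM. RANKL 72 h libraries held 268, 293 and 272, a difference of -2.04 (SE 0.27, adjusted p = 0.000154), and the highest of them was below the lowest of any other group. LPS 72 h libraries held 2199, 2265 and 1773, all above every other library (0.86, SE 0.27, adjusted p = 0.0243). The LPS 72 h call was lost without control replicate 1 (0.72, adjusted p = 0.0926) and without LPS 72 h replicate 1 (0.81, adjusted p = 0.0731) or 2 (0.79, adjusted p = 0.0797). RANKL 72 h lay below LPS 72 h (-2.90, SE 0.27, adjusted p = 2.27e-06). LPS 4 h libraries held 459, 498 and 1009 FPKM, of which the third overlapped with control (-0.89, SE 0.27, adjusted p = 0.0113). The LPS 4 h call was lost after centring (-0.33, adjusted p = 0.375) and without LPS 4 h replicate 1 (-0.69, adjusted p = 0.0581) or 2 (-0.74, adjusted p = 0.0518). RANKL 4 h libraries held 841, 927 and 1410 FPKM, and replicate 3 was the highest of its group in RANKL 4 h, LPS 4 h and control.

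The exporter *Slc40a1* (chr1:45908068-45926523, minus strand) was highest in control. Control libraries held 162, 258 and 203 FPKM, and every library of the 4 stimulated groups held less. LPS 4 h libraries held 16.3, 29.5 and 25.3 FPKM (-3.14, SE 0.25, adjusted p = 3.46e-07, -2.58 after centring), and RANKL 72 h libraries 57.3, 54.1 and 45.3 (-1.97, SE 0.25, adjusted p = 0.000112). LPS 72 h libraries held 144, 83.5 and 108 FPKM (-0.90, SE 0.25, adjusted p = 0.0131), a call lost without control replicate 2 (-0.73, adjusted p = 0.0617) or LPS 72 h replicate 2 (-0.71, adjusted p = 0.0672). RANKL 4 h libraries held 98.5, 148 and 104 FPKM, a difference of -0.83 that did not pass after adjustment (SE 0.25, adjusted p = 0.453, unadjusted p = 0.0053). In order of level the groups ran control, RANKL 4 h, LPS 72 h, RANKL 72 h and LPS 4 h, and of neighbours in this order only RANKL 4 h and LPS 72 h overlapped. The ratio of *Tfrc* to *Slc40a1* within a library, import against export, was chosen after the values were seen and is given without a test. It was 0.471 ± 0.139 in control, 0.794 ± 0.167 in RANKL 4 h, 1.81 ± 0.650 in RANKL 72 h, 2.21 ± 0.144 in LPS 4 h and 0.367 ± 0.0945 in LPS 72 h. All libraries of RANKL 72 h (1.39 to 2.56) and LPS 4 h (2.10 to 2.37) had more receptor than exporter FPKM, and all libraries of the other 3 groups had less.

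*Hamp* (chr7:30942368-30944032, minus strand), the hepcidin gene, is known chiefly from liver and was close to the detection limit in these cells. Control libraries held 2, 0 and 2 fragments (0.236, 0 and 0.253 FPKM), RANKL 4 h and RANKL 72 h libraries 0, 1 and 0 each, and LPS 72 h libraries 4, 5 and 0. LPS 4 h libraries held 49, 9 and 13 fragments (6.05, 1.06 and 1.55 FPKM), all above every other library, with replicate 1 holding most of the 71. Against the 4 fragments of control this is a ratio of 17.5 (95% exact interval 6.55 to 66.1, counting error only), and against the single fragment of RANKL 4 h a ratio of 68.6 (11.9 to 2750). The fitted difference from control was 3.32 (SE 0.78, adjusted p = 0.00244, 3.89 after centring), 2.60 without LPS 4 h replicate 1, 2.72 without control replicate 2, and between 1.53 and 4.65 with a pseudocount of 1 and 0.01. From 4 h to 72 h of LPS it fell (-2.72, adjusted p = 0.00713, -3.37 after centring), by -2.0 without LPS 4 h replicate 1 and -1.83 without LPS 72 h replicate 3, and the call was lost with a pseudocount of 0.01 (adjusted p = 0.0607). RANKL 72 h and LPS 72 h differed by -1.40 (adjusted p = 0.16), which passed only without LPS 72 h replicate 3 (-2.29, adjusted p = 0.0177). The gene overlaps *Gm44662* on the other strand.

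The 2 low genes are shown with the 250 bases before their RefSeq start on GRCm38.p6, because both appeared in LPS 4 h from almost nothing. Of the iron genes, 7 had a RefSeq promoter entry and *Slc40a1*, *Slc11a2* and *Hmox1* had none. Both strands were searched for the BMP-responsive element GGCGCC, the STAT element TTCNNNGAA, the antioxidant response element TGACNNNGC, the E-box CACGTG, the AP-1 element TGANTCA and the C/EBP element TTGCNNAA, and matches are in capitals.
*Hamp*, chr7:30944030-30944279, minus strand: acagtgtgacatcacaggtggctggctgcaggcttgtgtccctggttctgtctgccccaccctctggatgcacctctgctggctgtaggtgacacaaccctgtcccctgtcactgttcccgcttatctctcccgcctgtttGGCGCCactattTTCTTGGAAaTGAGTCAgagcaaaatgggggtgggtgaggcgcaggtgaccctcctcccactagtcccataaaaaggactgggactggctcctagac
*Steap4*, chr5:7960222-7960471, plus strand: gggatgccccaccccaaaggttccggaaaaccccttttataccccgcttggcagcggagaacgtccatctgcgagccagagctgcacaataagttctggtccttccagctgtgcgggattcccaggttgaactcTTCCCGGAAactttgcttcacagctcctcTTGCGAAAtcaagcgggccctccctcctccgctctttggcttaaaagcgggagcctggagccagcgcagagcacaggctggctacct
In *Hamp* the first bases of GGCGCC, TTCNNNGAA and TGANTCA lay at -109, -97 and -87 from the start. In *Steap4* those of TTCNNNGAA and TTGCNNAA lay at -116 and -87. Windows of other iron genes held matches too, GGCGCC in *Tfrc* (-89), TTGCNNAA in *Fth1* (-129 and -58) and TGACNNNGC in *Ncoa4* (-44). Among 32851 promoters of the same length, 9.59% held GGCGCC, 7.02% TTCNNNGAA, 6.75% TGANTCA and 9.56% TTGCNNAA, while 10.2% held TGACNNNGC and 6.02% CACGTG. Both windows held TTCNNNGAA, which does not show that a factor was bound.

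Direct comparison of the stimuli gave the largest number of changed iron genes at 72 h. RANKL 72 h exceeded LPS 72 h for 3 (*Tfrc*, *Steap4*, *Ncoa4*), where 23.3% of all genes were higher, and fell below it for 5 (*Slc40a1*, *Slc11a1*, *Hmox1*, *Fth1*, *Ftl1*), where 12.8% were lower. *Slc40a1* was 0.477 times its LPS 72 h level in RANKL 72 h (-1.07, SE 0.25, adjusted p = 0.00343), and *Hmox1* 0.134 times. At 4 h, RANKL exceeded LPS for 4 (*Tfrc*, *Slc40a1*, *Hmox1*, *Ncoa4*), where 41% of all genes were higher, and fell below it for 3 (*Slc11a2*, *Steap4*, *Hamp*), where 8.98% were lower. *Slc40a1* was 4.97 times higher in RANKL 4 h than in LPS 4 h (2.31, SE 0.25, adjusted p = 4.82e-06, 1.75 after centring), and *Slc11a2* 0.566 times (-0.82, adjusted p = 0.000288).

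*Steap4* (-4.83, adjusted p = 2.15e-07) and *Hamp* (-4.12, adjusted p = 0.000495) had the largest differences of the 10 genes between RANKL 4 h and LPS 4 h and kept their calls after centring (-5.40 and -4.69) and without any single library, though the size for *Hamp* was -3.41 without LPS 4 h replicate 1. The calls of *Tfrc*, *Hmox1* and *Ncoa4* depended on the scale and on single libraries. After centring, *Tfrc* (0.26 in place of 0.82), *Hmox1* (0.18 in place of 0.75) and *Ncoa4* (0.12 in place of 0.69) no longer passed between RANKL 4 h and LPS 4 h, and *Slc40a1* was then the 1 gene higher. Without LPS 4 h replicate 1, *Tfrc* (0.56, adjusted p = 0.144), *Hmox1* (0.54, adjusted p = 0.122) and *Ncoa4* (0.52, adjusted p = 0.0435) were not called, which left 4 of the 7. *Tfrc* was also lost without RANKL 4 h replicate 2 (0.75, adjusted p = 0.09) or 3 (0.73, adjusted p = 0.093), and *Hmox1* without LPS 4 h replicate 2 (0.60, adjusted p = 0.105), without RANKL 4 h replicate 3 (0.53, adjusted p = 0.126) and in a fit of the 2 groups alone (adjusted p = 0.0933). *Slc11a1*, at 0.48 and not called, passed without LPS 4 h replicate 3 (0.59, adjusted p = 0.0111) and turned to -0.09 after centring (adjusted p = 0.698). *Ftl1*, at 0.57 and not called, passed with FPKM rescaled to equal sums (0.59, adjusted p = 0.0193) and was 0.01 after centring (adjusted p = 0.993).

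Between 4 h and 72 h the iron genes took different courses under the 2 stimuli. In RANKL, 72 h exceeded 4 h for *Steap4* alone, where 16.4% of all genes were higher, and lay below it for *Slc40a1*, *Slc11a1*, *Hmox1*, *Fth1* and *Ftl1*, where 6.83% were lower. *Hmox1* fell by 1.89 (SE 0.27, adjusted p = 0.000254) and *Fth1* by 1.39 (SE 0.28, adjusted p = 0.00245), a call of *Fth1* lost without the filter on low genes (adjusted p = 0.115). *Ftl1* fell by 0.71, just past the threshold (adjusted p = 0.0479). That *Ftl1* call was lost without RANKL 4 h replicate 1 (-0.66), 2 (-0.76) or 3 (-0.71) and without RANKL 72 h replicate 1 (-0.56) or 3 (-0.70), with adjusted p from 0.0879 to 0.156, and under 5 other settings. In LPS, 72 h exceeded 4 h for *Slc40a1*, *Slc11a1*, *Hmox1* and *Ftl1*, where 44.2% of all genes were higher, and lay below it for *Steap4* and *Hamp*, where 13.9% were lower. *Slc40a1* rose 4.73-fold (2.24, SE 0.25, adjusted p = 4.24e-06), *Hmox1* 3.37-fold (1.75, SE 0.27, adjusted p = 6.84e-05) and *Slc11a1* 2.44-fold (1.29, SE 0.16, adjusted p = 1.1e-05). After centring these were 1.59, 1.10 and 0.64, all still called, *Ftl1* was not (0.17 in place of 0.82, adjusted p = 0.71), and *Tfrc* (-1.02, adjusted p = 0.00823) and *Slc11a2* (-0.85, adjusted p = 9.31e-05) were lower at 72 h. The *Ftl1* call was also lost without the filter (adjusted p = 0.173) and in a fit of the 2 groups alone (adjusted p = 0.108). *Ncoa4*, at 0.43 and not called, passed without LPS 72 h replicate 3 (0.60, adjusted p = 0.0159) and turned to -0.22 after centring (adjusted p = 0.272). *Fth1*, at 0.56 and not called, passed with FPKM rescaled to equal sums (0.61, adjusted p = 0.0164) and turned to -0.08 after centring (adjusted p = 0.882).

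Among themselves, *Slc11a1*, *Hmox1*, *Fth1* and *Ftl1* ran together over the 15 libraries, with Pearson r of 0.97 for *Slc11a1* and *Hmox1*, 0.91 for *Slc11a1* and *Ftl1*, 0.88 for *Slc11a1* and *Fth1* and for *Hmox1* with each ferritin chain, and 0.73 between the ferritin chains. *Steap4* ran opposite to *Ftl1* (r = -0.91) and *Hmox1* (-0.84). These values describe 15 libraries in 5 groups that share their stimulus and are not a test. Of 9485 other genes that averaged 1 FPKM or more, the 3 most like *Slc11a1* were the lysosomal haem transporter *Slc48a1* (r = 0.984), *Hmox1* (0.965) and the kinase *Chuk* (0.952). The 3 most like *Hmox1* were *Ptgr1*, a prostaglandin reductase (0.966), *Slc11a1* (0.965) and *Slc48a1* (0.958). Genes close to *Fth1* included *Prdx1*, a peroxidase (0.930), and *Clec4d* (0.928), and *Ftl1* was most like *Snapc5* (0.958), *AI413582* (0.957) and *Lamtor5* (0.952). *Slc40a1* was most like *L3mbtl3* (0.966), *Skiv2l* (0.960) and *Ppp1r9b* (0.947), and *Tfrc* most like *Nptn* (0.954), *Reps2* (0.946) and *Nln* (0.938). *Steap4* was most like *Myo10*, an unconventional myosin (0.969), *Ext1* (0.966) and *Seh1l* (0.964), and *Slc11a2* most like the early endosome GTPase *Rab5a* (0.939), *Trpm4* (0.930) and *Itga5* (0.916). *Ncoa4* was most like the kinase *Btk* (0.969), *Ppwd1* (0.960) and *Ankrd13a* (0.936), and *Hamp*, read from few fragments, most like *Taf7* (0.924), *Chic2* (0.916) and *Ppp1r15a* (0.911).

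Around the 10 genes, a wider list of 62 genes of iron and haem handling was in the table, 4 of them under older symbols, and 52 passed the filter. RANKL 4 h changed none of the 52, with a median difference of -0.01 (log2). RANKL 72 h had 5 of 52 higher and 4 lower (median 0.20, all genes 0.16), no more than among all tested genes higher (16.6%) and about as many as lower (7.54%). LPS 4 h had 7 higher and 25 lower (median -0.60, all genes -0.52), where 8.43% of all genes were higher and 39.7% lower. LPS 72 h had 12 higher and 9 lower (median 0.18, all genes 0.08), where 13% were higher and 14.4% lower. After centring, LPS 4 h had 9 higher and 4 lower, where 1871 and 1529 of all 11743 tested genes were. RANKL 72 h then had 4 higher and 7 lower, where 1167 and 1428 of all tested genes were. With FPKM rescaled to equal sums, RANKL 72 h had 12 higher and 3 lower, where 2509 and 731 of all tested genes were. With the replicate number as a block it had 9 higher and 4 lower, where 2157 and 992 of all tested genes were. By role, LPS 4 h lowered 5 of 6 haem synthesis genes and raised 1, lowered 7 of 12 mitochondrial iron genes and raised 1, and lowered 4 of 12 other uptake genes and raised 1. After centring these were 2 lower and 1 higher, 0 lower and 1 higher, and 1 lower and 2 higher, in the same order. In LPS 72 h, 4 of 12 other uptake genes and 4 of 12 mitochondrial iron genes were higher and 2 of each were lower, beside 13% and 14.4% of all genes. Centring left 3 of each higher, where 1212 of all 11743 tested genes were. In RANKL 72 h, 2 of 4 tested genes of hepcidin control were higher, beside 16.6% of all genes. Higher genes were 4 of 4 with FPKM rescaled to equal sums, 3 of 4 with the replicate block and 2 of 4 after centring. Over all 11743 tested genes, 2509, 2157 and 1167 were higher under these settings, in the same order.

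Named members of the wider list were chosen by size within each comparison. In RANKL 72 h, *Slc48a1*, which carries haem out of the lysosome, fell from 242 ± 16.1 to 97.5 ± 12.2 FPKM (-1.32, adjusted p = 2.79e-05), and the biliverdin reductase *Blvrb* from 313 ± 34.7 to 177 ± 43.8 (-0.85, adjusted p = 0.00726). The siderophore-binding lipocalin *Lcn2* was lower as well (-1.68, adjusted p = 0.0488), a call lost without control replicate 1 (-1.36) or 3 (-1.39), without RANKL 72 h replicate 2 (-1.72) or 3 (-1.16), and under 4 other settings, and at -2.28 without control replicate 2. *Neo1*, a receptor that acts on hepcidin control in liver, rose by 1.25 (adjusted p = 0.00896), the mitochondrial transporter *Abcb8* by 1.07 (adjusted p = 0.0029) and the protease *Furin* by 0.87 (adjusted p = 0.00144). In LPS 4 h, the ferroxidase *Cp* rose from 1.12 ± 0.606 to 13 ± 5.11 FPKM (3.50, adjusted p = 5.04e-05, 4.07 after centring), the metal importer *Slc39a14* from 2.79 ± 0.355 to 12.5 ± 3.02 (2.11, adjusted p = 3.65e-07, 2.68 after centring) and *Furin* from 20.5 ± 3.84 to 69.7 ± 7.74 (1.77, adjusted p = 1.04e-06, 2.34 after centring). The endosomal ferrireductase *Steap3* fell from 24 ± 2.51 to 6.00 ± 1.35 FPKM (-2.0, adjusted p = 4.92e-07, -1.43 after centring), opposite in direction to *Steap4*, and the haem synthesis enzyme *Cpox* (-1.68, adjusted p = 1.29e-05, -1.12 after centring) and the haem exporter *Mfsd7b*, also called *Flvcr1* (-1.63, adjusted p = 0.000188, -1.07 after centring), fell too.

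In LPS 72 h, *Cp* was still higher than control (1.73, adjusted p = 0.0152), a call lost without control replicate 3 (1.26, adjusted p = 0.07) or LPS 72 h replicate 3 (1.32, adjusted p = 0.0534). *Hif1a*, a factor of the response to low oxygen, rose from 23.8 ± 2.42 to 78.2 ± 19.7 FPKM (1.69, adjusted p = 2.4e-05). *Fbxl5*, the iron-sensing ubiquitin ligase subunit that removes an iron regulatory protein, rose from 20.9 ± 6.18 to 59.0 ± 10.9 FPKM (1.51, adjusted p = 0.000162). *Steap3* was lower (-1.03, adjusted p = 0.000401), as was the porphyrin exporter *Abcg2* (-1.01, adjusted p = 0.000331). The haptoglobin-haemoglobin receptor *Cd163* was lower at 1.08 ± 1.45 against 3.33 ± 1.70 FPKM (-2.29, adjusted p = 0.0356), a call lost without control replicate 2 (-1.92) or 3 (-2.34) or LPS 72 h replicate 1 (-1.38) or 2 (-2.14), and under 3 other settings, and at -3.36 without LPS 72 h replicate 3.

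**Figure D4:**
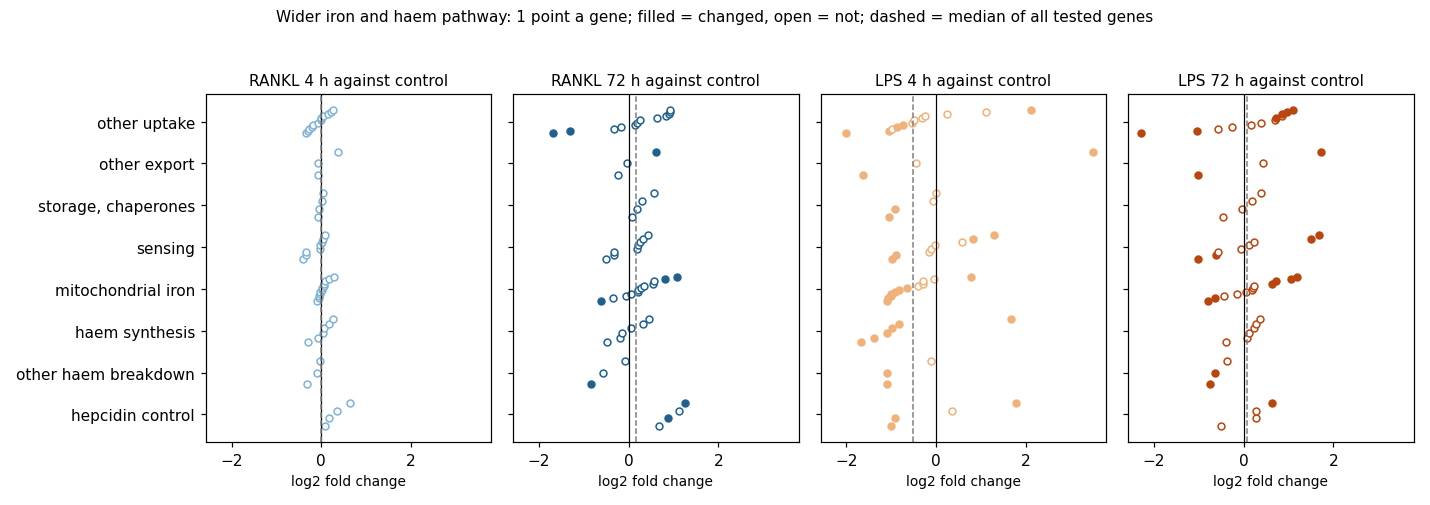
Log2 fold change against control of the 52 tested genes of the wider iron and haem list, 1 point a gene, by role and stimulated group. Filled points passed the call and the dashed line is the median of all tested genes; in LPS 4 h most filled points lie left of 0, as that median (-0.52) does.

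Markers of other cells moved with the same groups. Erythroid markers, 11 of 12 in the table and 4 tested, were low throughout, with summed levels of 5.87 to 13.6 FPKM in control, 0.592 to 1.09 in RANKL 72 h and 0.758 to 1.06 in LPS 72 h, and 6 of the 11 were at 0 in RANKL 72 h. Markers of neutrophils and their precursors summed to 7910 to 24300 FPKM in control, 1850 to 7460 in RANKL 72 h and 152 to 1820 in LPS 72 h, with none at 0. Of these markers, 5 of 10 were lower in RANKL 72 h, beside 7.54% of all genes, and 10 of 10 in LPS 72 h, beside 14.4%. Dividing cell markers summed to 161 to 258 FPKM in control, 296 to 421 in RANKL 72 h and 10.8 to 46.6 in LPS 72 h (10 of 10 lower, beside 14.4% of all genes). In RANKL 72 h 2 of 10 were higher, beside 16.6% of all genes. That count was 0 after centring, 5 with equal sums and 4 with the replicate block, where 1167, 2509 and 2157 of all 11743 tested genes were higher. Stromal markers summed to 163 to 332 FPKM in control and 445 to 2040 in RANKL 72 h. Of these, 7 of 12 were higher, where 16.6% of all genes were, and 3 after centring, where 1167 of all 11743 tested genes were. The part of these cells in the changes of the iron genes was not tested.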

How the data were processed

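RNA-seq libraries of 15 BMDM samples were made with the RNeasy mini plus and SMARTER mRNA-seq kits. The authors deposited FPKM per gene and sample, made with StringTie and Ballgown by their methods, and the submitters' processing notes name GRCm38.p4 and mm10. The aligner, annotation and versions are not given in the sources used here. The table read here ends at *Tti2* (20089 genes, and 1 line cut short), and later symbols were not analysed here. FPKM steps gave whole fragments for 14485 of 14485 genes above 0 in at least 3 samples (100% of values within 0.01). The step of a gene was accepted only when all its values were whole within 0.01, so that percentage follows from the rule and is not a check.

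Log2(FPKM + 0.1) was fitted for 11743 genes that averaged 0.1 FPKM or more, by lmFit and trended eBayes of limma 3.58.1 in R 4.3.3, in 1 model of 5 groups, with 8 comparisons. The study's methods used a count model with an unadjusted p and the same fold limits. The script was tested on simulated data. Replicate numbers come from the labels. Deviations of same-numbered libraries correlated above 0.1 in all 3 pairs for RANKL 4 h (0.84, 0.71 and 0.74), RANKL 72 h (0.32, 0.14 and 0.18) and LPS 4 h (0.62, 0.62 and 0.44) with control, and not for LPS 72 h (-0.03, 0.18 and 0.07). Alternatives covered the pseudocount, filter, scaling, groups in the fit, replicate block, trend, adjustment, limma voom on fragments and leaving out each library. The 3 genes most like each iron gene were ranked by Pearson r on the log2 scale, of which 1 is not reported here. The wider list names at most 3 rises and 3 falls per comparison among called genes averaging 1 FPKM or more. Members, lists and tests were chosen with earlier results of these data known. Ratios were computed in Python 3.11.15 (numpy 2.4.6, pandas 2.3.3, scipy 1.17.1), and figures drawn with matplotlib 3.10.9.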

Additional observations from a re-analysis of the deposited data

Results flagged for a closer look

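The response of several iron genes differed between 4 h and 72 h by the limma test of the difference itself. Under RANKL the log2 difference of 72 h from 4 h was -1.39 for *Fth1*, -0.71 for *Ftl1*, -1.89 for *Hmox1*, -1.14 for *Slc11a1*, -1.14 for *Slc40a1* and 5.29 for *Steap4*. Under LPS it was 0.82 for *Ftl1*, -2.72 for *Hamp*, 1.75 for *Hmox1*, 1.29 for *Slc11a1*, 2.24 for *Slc40a1* and -4.70 for *Steap4*. *Hmox1*, *Slc11a1* and *Slc40a1* thus went down with time under RANKL and up under LPS, and *Steap4* the reverse. The *Ftl1* values are weaker, since the LPS difference was 0.17 after centring (adjusted p = 0.71) and the RANKL call was kept in 7 of 17 alternatives.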

How the results depend on the processing

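Of 1352 alternative values for 80 differences of single iron genes, 1274 kept direction and call, 64 lost the call, 14 gained it and none reversed a call, while 26 uncalled differences changed sign. Counts of changed iron genes stayed within 1.5 times of the main count in 131 of 136 alternatives. With an unadjusted p, RANKL 4 h changed 1 gene (*Slc40a1*, lower) in place of 0. With samples centred on their median gene, LPS 4 h against control and RANKL 4 h against LPS 4 h each had 4 in place of 7. Leaving out 1 library gave 0 in RANKL 4 h, 5 to 6 in RANKL 72 h, 5 to 7 in LPS 4 h and 3 to 6 in LPS 72 h against control, with the 3 reached without LPS 72 h replicate 2 (7 with all libraries). It gave 4 to 8 for RANKL 4 h against LPS 4 h, with the 4 reached without LPS 4 h replicate 1, and 8 to 9 for RANKL 72 h against LPS 72 h. For 72 h against 4 h it gave 5 to 6 in RANKL and 6 to 7 in LPS.

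With the replicate number as a block, no call of an iron gene changed. Counts against control stayed at 7 for each LPS group, 6 for RANKL 72 h and 0 for RANKL 4 h. Over all tested genes the block called 24 in RANKL 4 h in place of 14, and an unadjusted p called 301. The block spanned all 5 groups, though LPS 72 h libraries did not pair with control by number. A block over RANKL 4 h and control alone was not tested. In every same-numbered pair of these groups *Slc40a1* was lower and *Slc11a2* higher in RANKL 4 h. Their adjusted p in the limma fit with the block was 0.332 and 0.22. *Hamp*, with at most 5 fragments per library outside LPS 4 h, and *Steap4*, with at most 6 outside RANKL 72 h and LPS 4 h, limit what can be said of falls in these genes.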
